A study of Mus musculus with 48 samples.

Results

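Neutrophils sorted from 2208L breast tumours were compared with neutrophils sorted from T11 breast tumours, 3 RNA-seq libraries of each, by taking the 6 libraries whose titles name these tumours and this cell type out of 48. 2208L and T11 are mouse breast tumour lines, and the labels give BALB/C as the strain for both. Tumours of both kinds were enzymatically dissociated, and live cells that carried CD45, CD11b and Ly6G with medium to low Ly6C were sorted straight into lysis reagent. No agent, genotype or age is given in the sources used here. The labels name no separate animals, so p-values reflect library-to-library spread that may be technical. Other libraries of the series, neutrophils of AT3 and E0771 tumours, macrophages (Ly6G- Ly6C- F4/80+) of the same tumours and the tumour lines in culture, served for comparison. Tumour myeloid cells of the series come from BALB/C and C57BL/6 tumours, so a comparison with AT3 or E0771 may also be one of strain. Of 24054 genes in the table, 17202 passed a filter on low counts over the 12 neutrophil libraries and were tested.

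Neutrophils are short-lived granulocytes that leave the bone marrow loaded with granule proteins and follow CXCR2 ligands into tissue. In tumours they can secrete interleukin 1 and proteases and carry PD-L1 and enzymes that restrain T cells. Low oxygen prolongs their survival, and they draw energy mainly from glycolysis. The 3 genes used as markers of the cell type were clearly present. S100a8, a calprotectin subunit (chromosome 3, 90668978 to 90670035 in mm10, GENCODE M21), had 800.3, 1246 and 794 CPM in 2208L neutrophils, against 802, 318 and 456 CPM in T11 neutrophils, where CPM are counts scaled to a common total outside the ribosomal precursor Rn45s. Its partner S100a9 had 2422, 3616 and 2458 CPM in 2208L neutrophils, against 2593, 764 and 984 CPM in T11 neutrophils. Cxcr2, the chemokine receptor, had 619, 824 and 641 CPM in 2208L neutrophils, against 562, 169 and 406 CPM in T11 neutrophils. 2208L and T11 values overlapped for S100a8 and S100a9 and did not for Cxcr2. In macrophages of 2208L and T11 tumours S100a8 averaged 4.92 ± 6.77 and 1.42 ± 0.586 CPM (SD, n = 3 each). Ly6g, which encodes the sorting marker, was not analysed here.

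The 2 groups differed in depth and in background, and both bear on the differences below. 2208L libraries held 2098271, 2829099 and 1704364 counts, of which Rn45s took 56.0 to 58.1%, and T11 libraries held 1084947, 669862 and 794549 counts, of which it took 26.8 to 42.9%. Genes of olfactory and vomeronasal receptors, which neutrophils are not known to use, stood for background: 1437 of them took 6058, 3857 and 5820 CPM in 2208L libraries and 12990, 18860 and 14230 CPM in T11 libraries. The groups did not overlap, and the log2 ratio of the means was -1.55 (exact permutation test, 2-sided, p = 0.1, the smallest that 3 against 3 allows). A gene was called above background where its mean level per kb of exon over the 6 libraries reached 10 times the level of the receptor genes, which held for 1839 of the genes tested. These genes took 45.2 to 49.96% of the counts outside Rn45s in 2208L libraries and 17.4 to 27.95% in T11 libraries. Differences are therefore given as 2208L minus T11 on 2 scales, first with TMM factors from all genes tested and then with TMM factors from the genes above background, which lie 1.34 log2 units apart. The words rose and fell are kept for genes that passed an adjusted p of 0.05 in 1 direction on both scales. Because the scales lie apart, the second scale in effect decides which genes rose and the all-gene scale which fell. Among genes above background this rule favours rises. Differences are printed with their SE. Levels and differences of whole libraries cannot tell fewer cells of a type from less RNA per cell.

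**Figure D1:**
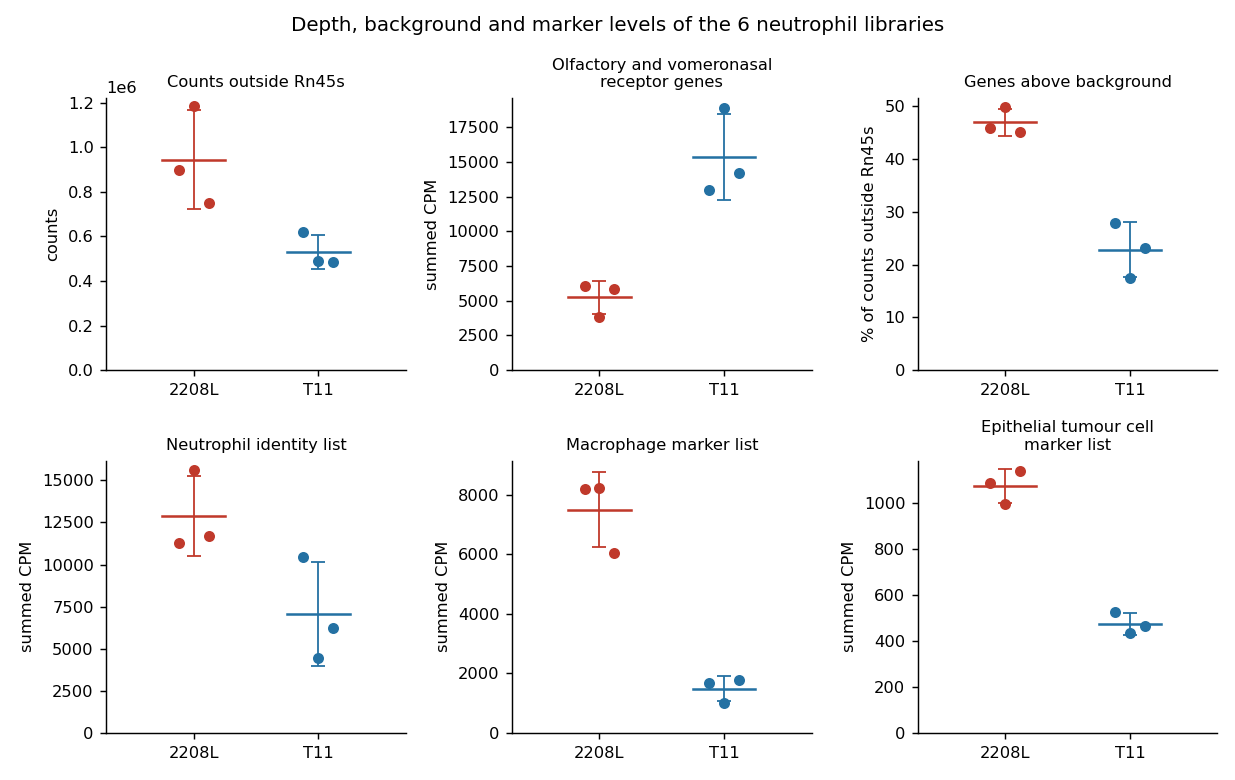
Counts outside Rn45s, receptor genes in summed CPM, the percentage of counts in genes above background, and the summed CPM of 3 marker lists, 1 point per library with mean and SD, 2208L left of T11. The groups do not overlap in any panel: receptor genes are lower in 2208L, and the others are higher.

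With all-gene factors 3362 genes (19.5%) were higher in 2208L neutrophils and 2590 (15.1%) were lower, and 8040 had an unadjusted p under 0.05. On the second scale 483 (2.81%) were higher and 11597 (67.4%) lower. 482 (2.8%) were higher on both scales and 2590 (15.1%) lower. Among the 1839 genes above background, all-gene factors called 1459 higher (79.3%) and 31 lower (1.69%), the other factors 426 higher (23.2%) and 236 lower (12.8%), and both together 425 higher (23.1%) and 31 lower (1.69%). The median difference of these genes was 1.44 and 0.13. The receptor genes themselves had a median of -1.13 over the 202 that were tested, with 0 higher and 68 lower on the all-gene scale. Of the 425 genes that rose, 142 (33.4%) had their highest 2208L level in neutrophils, 190 in macrophages of the same tumours and 93 in cultured 2208L cells. Over all 1839 genes the share with the highest level in neutrophils was 46.9%. Without 2208L replicate 2 or T11 replicate 2 the counts were 307 and 308 higher, each with 10 lower, and without T11 replicate 3 they were 350 and 19.

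**Figure D2:**
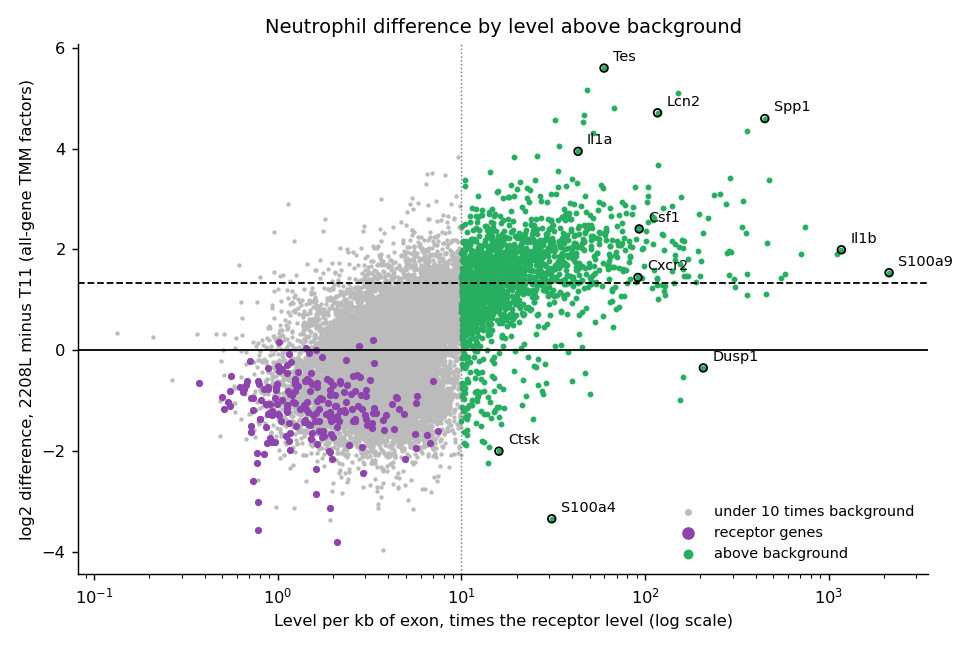
Log2 difference, 2208L minus T11, on the all-gene scale against the level as a multiple of the receptor level, 1 point per gene tested, log horizontal axis. The dashed line marks the zero of the scale set by genes above background, 1.34 log2 units up. Genes near the receptor level lie mostly below 0 and genes above 10 times that level mostly above it.

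Few genes of the neutrophil identity list rose, and the gelatinase Mmp9 was one of them. Of 18 identity genes, all above background, 10 (55.6%) were higher on the all-gene scale, against 79.3% of all genes above background. On both scales 3 (16.7%) rose, Mmp9, Clec4e and Il1r2, against 23.1% of all genes above background. Their median was 1.30 and 0.03, against 1.44 and 0.13 over all genes above background. The 18 genes summed to 11300 to 15590 CPM in 2208L neutrophils and 4421 to 10470 CPM in T11 neutrophils. In macrophages they summed to 1122 to 1299 CPM in 2208L and 3955 to 8777 CPM in T11 tumours. Mmp9 itself was higher in T11 macrophages than in T11 neutrophils. Mmp9, the gelatinase of tertiary granules (chromosome 2, 164940780 to 164955850), had 526, 848 and 566 CPM in 2208L neutrophils, against 250.2, 118 and 196 CPM in T11 neutrophils. The groups were apart by 2.36 ± 0.46 and 1.05 ± 0.27 (adjusted p = 0.000242 and 0.0022). Clec4e, the receptor Mincle, had 750.3, 715 and 718 CPM in 2208L neutrophils, against 282, 208 and 221 CPM in T11 neutrophils. Its differences were 2.19 ± 0.43 and 0.87 ± 0.20 (adjusted p = 0.000279 and 0.00119). Il1r2, the decoy receptor for interleukin 1, had 791, 1012 and 681 CPM in 2208L neutrophils, against 357, 234 and 312 CPM in T11 neutrophils. It rose by 2.05 ± 0.46 and 0.72 ± 0.22 (adjusted p = 0.0012 and 0.00781), although without 2208L replicate 2 its adjusted p on the second scale was 0.0566. S100a8 (1.43 ± 0.60 and 0.14 ± 0.26 (adjusted p = 0.0618 and 0.63)), S100a9 (1.54 ± 0.66 and 0.29 ± 0.28 (adjusted p = 0.0675 and 0.366)) and Csf3r, the receptor for the granulocyte growth factor (1.26 ± 0.59 and -0.02 ± 0.26 (adjusted p = 0.0933 and 0.951)), did not pass on either scale. Cxcr2 passed on the all-gene scale alone, with 1.44 ± 0.49 and 0.18 ± 0.27 (adjusted p = 0.0233 and 0.551), and lost that call without 2208L replicate 2, T11 replicate 2 or T11 replicate 3 (adjusted p = 0.111, 0.118 and 0.0669).

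Among granule genes lipocalin 2, lysozyme and the gelatinase rose. Of 15 genes of secondary and tertiary granules 7 lay above background and 3 of these (42.9%) rose on both scales, Lcn2, Lyz2 and Mmp9, where 23.1% of all genes above background did. Lcn2, an iron-sequestering lipocalin (chromosome 2, 32384633 to 32388252), had 1126, 1053 and 1174 CPM in 2208L neutrophils, against 87.2, 44.9 and 55.7 CPM in T11 neutrophils. All 3 2208L libraries stood more than 10 times above every T11 library, and the differences were 4.71 ± 0.52 and 3.42 ± 0.31 (adjusted p = 6.3e-08 and 8.27e-08). AT3 and E0771 neutrophils averaged 255 ± 165 and 118 ± 40.7 CPM. Lcn2 also stood at 557 ± 115 CPM in 2208L macrophages and 317 ± 34 CPM in cultured 2208L cells, against 2.43 ± 2.43 and 2 ± 0.613 CPM in T11 macrophages and cultured T11 cells. Lyz2, lysozyme, had 2999, 3146 and 2701 CPM in 2208L neutrophils, against 1117, 448 and 842 CPM in T11 neutrophils. It rose by 2.44 ± 0.57 and 1.17 ± 0.24 (adjusted p = 0.00151 and 0.000463), and its level in 2208L and T11 macrophages was 9130 ± 1020 and 4696 ± 79.8 CPM. Ltf, lactoferrin, differed by 1.43 ± 0.27 and 0.10 ± 0.30 (adjusted p = 0.000147 and 0.772), and Ngp, another secondary-granule protein, by 1.32 ± 0.45 and -0.06 ± 0.45 (adjusted p = 0.0228 and 0.913), so that its sign changed between the scales. Ngp lost its call on the all-gene scale without 2208L replicate 2, T11 replicate 2 or T11 replicate 3 (adjusted p = 0.185, 0.0675 and 0.0535). Mmp8, the neutrophil collagenase, did not pass (0.87 ± 0.43 and -0.51 ± 0.36 (adjusted p = 0.109 and 0.2)). Of 8 primary-granule genes 5 were tested and 1 lay above background, the protease activator Ctsc, with 2.08 ± 0.41 and 0.76 ± 0.29 (adjusted p = 0.000297 and 0.0235). On the second scale Ctsc lost its call without 2208L replicate 2, T11 replicate 1 or T11 replicate 2 (adjusted p = 0.133, 0.107 and 0.152). Elane, Prtn3 and Ctsg, serine proteases made in promyelocytes, did not pass the filter on low counts. Mpo, myeloperoxidase, lay at 3.39 times background, with 11.1, 5.06 and 14.7 CPM in 2208L neutrophils, against 50.05, 24.5 and 28.9 CPM in T11 neutrophils.

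Receptors for homing and maturation were led by Itgax and Icam1. Of 20 such genes 19 were above background and 4 of these (21.1%) rose on both scales, close to the 23.1% of all genes above background. Itgax, the integrin CD11c, had 727, 840.3 and 651 CPM in 2208L neutrophils, against 159.8, 118 and 118 CPM in T11 neutrophils. Its differences were 3.07 ± 0.40 and 1.74 ± 0.22 (adjusted p = 1.39e-06 and 1.72e-05), and its macrophage levels were 1470 ± 193 CPM in 2208L and 71.5 ± 24.8 CPM in T11 tumours. Icam1, an adhesion ligand that neutrophils gain on activation, had 193, 236 and 190.5 CPM in 2208L neutrophils, against 46.8, 44.9 and 51.6 CPM in T11 neutrophils. It rose by 2.70 ± 0.34 and 1.36 ± 0.28 (adjusted p = 7.68e-07 and 0.0005). Csf2rb, the shared beta chain of the receptors for GM-CSF, IL-3 and IL-5, had 1602, 1972 and 1582 CPM in 2208L neutrophils, against 754, 375 and 589.9 CPM in T11 neutrophils. It rose by 2.16 ± 0.54 and 0.86 ± 0.24 (adjusted p = 0.00279 and 0.0038). Cxcr4, the bone marrow retention receptor of aged neutrophils, was called on the all-gene scale alone (1.78 ± 0.48 and 0.53 ± 0.25 (adjusted p = 0.00496 and 0.0632)). Without T11 replicate 1 the list held 7 genes higher on both scales. Siglec5, the table's name for Siglecf, a sialic acid receptor of eosinophils and of some tumour neutrophils, had 177, 257 and 190.5 CPM in 2208L neutrophils, against 45.2, 46.9 and 30.9 CPM in T11 neutrophils. It rose by 2.93 ± 0.35 and 1.58 ± 0.32 (adjusted p = 2.34e-07 and 0.000423). Of the other eosinophil markers Epx, eosinophil peroxidase, was at 13.3, 5.06 and 27.97 CPM in 2208L neutrophils and 43.6, 38.7 and 47.4 CPM in T11 neutrophils, and Ccr3 was at 11.8 to 23.3 CPM in 2208L and 33.9 to 47.4 CPM in T11 neutrophils. Both were under 10 times background.

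Secreted signals were led by interleukin 1 alpha. Of 26 cytokine and chemokine genes 22 were tested, 14 lay above background and 6 of those (42.9%) rose on both scales, Il1a, Tnf, Csf1, Cxcl16, Ccl3 and Il1b, against 23.1% of all genes above background. With any 1 library left out the number was 4 or 5. The median of the 14 was 1.82 and 0.49. Il1a (chromosome 2, 129299610 to 129309972), an alarmin and ligand of the interleukin 1 receptor, had 300.1, 285 and 313 CPM in 2208L neutrophils, against 30.7, 20.4 and 35.1 CPM in T11 neutrophils. Every 2208L library stood far above every T11 library, with differences of 3.94 ± 0.40 and 2.64 ± 0.33 (adjusted p = 7.97e-09 and 1.35e-05). Il1a averaged 45.2 ± 22.7 and 48.3 ± 15.9 CPM in AT3 and E0771 neutrophils and 116 ± 14.9 and 2.72 ± 1.01 CPM in 2208L and T11 macrophages. Tnf, tumour necrosis factor, had 147, 104 and 111 CPM in 2208L neutrophils, against 32.3, 24.5 and 37.1 CPM in T11 neutrophils. It rose by 2.51 ± 0.34 and 1.20 ± 0.34 (adjusted p = 1.84e-06 and 0.00378). Csf1, the growth factor of macrophages (chromosome 3, 107741048 to 107760469), had 1302, 1686 and 1435 CPM in 2208L neutrophils, against 559, 265 and 419 CPM in T11 neutrophils. It rose by 2.40 ± 0.47 and 1.11 ± 0.21 (adjusted p = 0.00024 and 0.000277) and was far lower in macrophages of both tumours, at 99.2 ± 59 and 5.79 ± 2.13 CPM. Il1b, interleukin 1 beta, had 5740, 7346 and 5664 CPM in 2208L neutrophils, against 3150, 1590 and 2302 CPM in T11 neutrophils. Its groups did not overlap, with 1.99 ± 0.71 and 0.69 ± 0.25 (adjusted p = 0.0284 and 0.0165), but it lost its call without any of the 3 2208L libraries, T11 replicate 2 or T11 replicate 3 (adjusted p on the all-gene scale 0.0555 to 0.113). Ccl3, a chemokine that acts through CCR1, rose by 1.96 ± 0.42 and 0.63 ± 0.24 (adjusted p = 0.000727 and 0.024) and lost its call without 2208L replicate 1, 2208L replicate 3, T11 replicate 1 or T11 replicate 2 (adjusted p on the second scale 0.0596 to 0.13). Cxcl16, the ligand of CXCR6, rose by 2.59 ± 0.38 and 1.27 ± 0.28 (adjusted p = 5.51e-06 and 0.000832). Osm, oncostatin M, had 140, 186 and 197 CPM in 2208L neutrophils, against 313, 124 and 179 CPM in T11 neutrophils. The groups overlapped, with 0.32 ± 0.42 and -0.95 ± 0.27 (adjusted p = 0.544 and 0.00441), so that it passed on the second scale alone and with the opposite sign. Il6, Csf2 and Ccl5 had too few counts to test.

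**Figure D3:**
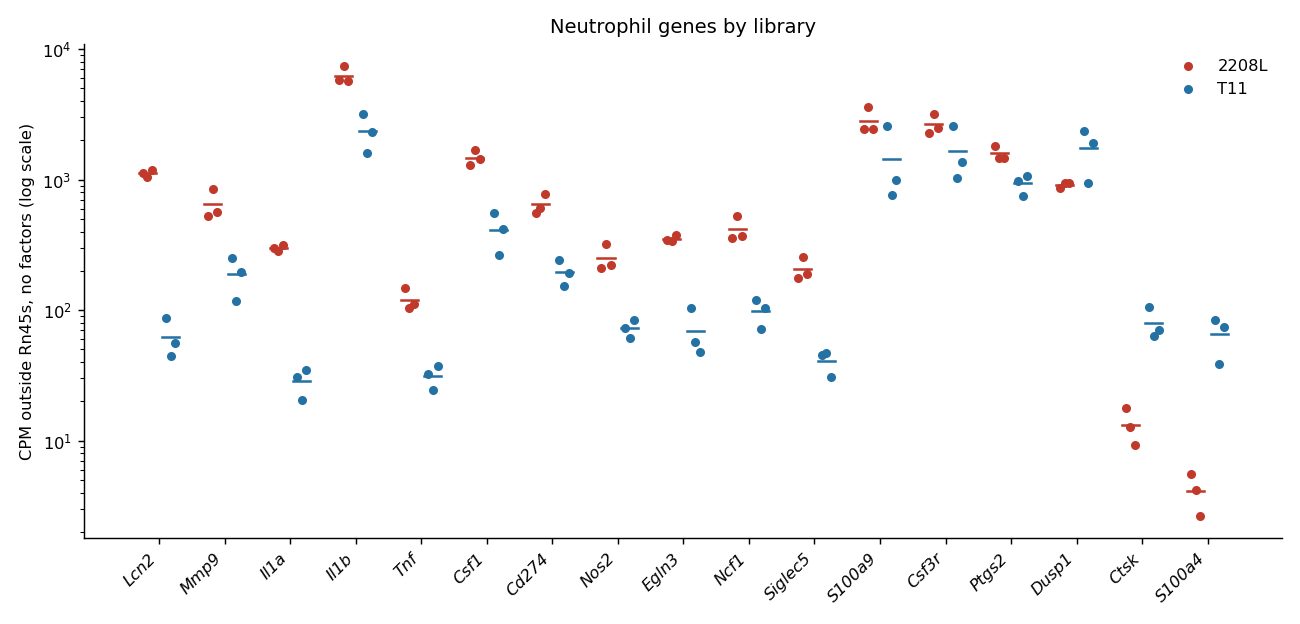
CPM outside Rn45s on a log axis, without scaling factors, of 17 genes in the 3 2208L libraries (red) and the 3 T11 libraries (blue) of neutrophils, 1 point per library with the bar at the mean. Lcn2 and Il1a stand far apart, S100a9 and Csf3r overlap, and Dusp1, Ctsk and S100a4 are lower in 2208L.

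Genes linked to suppression of T cells rose in part. Of 25 such genes 24 were tested, 16 lay above background and 7 of these (43.8%) rose on both scales, against 23.1% of all genes above background, with a median of 1.80 and 0.49. With any 1 library left out the number was 5 to 7. Cd274, which encodes PD-L1 (chromosome 19, 29367455 to 29388095), had 558, 608 and 781 CPM in 2208L neutrophils, against 244, 153 and 192 CPM in T11 neutrophils. Every 2208L library stood above every T11 library, by 2.29 ± 0.48 and 0.99 ± 0.30 (adjusted p = 0.000548 and 0.00572), and AT3 and E0771 neutrophils averaged 422 ± 284 and 472 ± 103 CPM. Nos2, the inducible nitric oxide synthase, had 210.1, 323 and 222 CPM in 2208L neutrophils, against 72.7, 61.1 and 84.6 CPM in T11 neutrophils. It rose by 2.39 ± 0.45 and 1.04 ± 0.34 (adjusted p = 0.000152 and 0.0107), and without 2208L replicate 2 its adjusted p on the second scale was 0.0615. Il4ra, the receptor for IL-4 and IL-13, rose by 2.42 ± 0.43 and 1.09 ± 0.22 (adjusted p = 9.09e-05 and 0.000372). Wfdc17, a small secreted protein of activated myeloid cells, rose by 2.70 ± 0.47 and 1.39 ± 0.27 (adjusted p = 6.51e-05 and 0.00035). Arg1, arginase 1, had 92.2, 135 and 85.2 CPM in 2208L neutrophils, against 53.3, 30.6 and 43.3 CPM in T11 neutrophils. It passed on the all-gene scale alone (1.88 ± 0.40 and 0.56 ± 0.39 (adjusted p = 0.000688 and 0.201)). Ptgs2, the inducible prostaglandin synthase, did not pass (1.33 ± 0.54 and 0.01 ± 0.24 (adjusted p = 0.0541 and 0.963)), nor did Arg2 (0.71 ± 0.36 and -0.65 ± 0.30 (adjusted p = 0.112 and 0.0543)).

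Most genes of hypoxia and glycolysis rose. Of 29 genes 28 were tested and 23 lay above background. All 23 were higher on the all-gene scale and 16 (69.6%) rose on both, where 23.1% of all genes above background did. Their median was 2.28 and 1.00. Without T11 replicate 2, 12 rose. Tpi1, triosephosphate isomerase, had 552, 539 and 498 CPM in 2208L neutrophils, against 116, 36.7 and 86.6 CPM in T11 neutrophils. It rose by 3.28 ± 0.47 and 2.01 ± 0.29 (adjusted p = 4.33e-06 and 4.06e-05). Aldoa, aldolase, had 728, 828 and 998 CPM in 2208L neutrophils, against 209.9, 69.3 and 118 CPM in T11 neutrophils. It rose by 3.23 ± 0.46 and 1.98 ± 0.26 (adjusted p = 4.88e-06 and 2.02e-05). Each 2208L library stood at least 3 times above every T11 library for these 2 glycolytic genes. Ldha, lactate dehydrogenase, had 806, 758 and 915 CPM in 2208L neutrophils, against 254, 69.3 and 169 CPM in T11 neutrophils. It rose by 2.88 ± 0.48 and 1.64 ± 0.27 (adjusted p = 4.08e-05 and 0.000115). Egln3, a prolyl hydroxylase induced by the hypoxia-inducible factor HIF, had 346, 336 and 378 CPM in 2208L neutrophils, against 103, 57.1 and 47.4 CPM in T11 neutrophils. It rose by 2.90 ± 0.48 and 1.60 ± 0.34 (adjusted p = 3.54e-05 and 0.000573), and its level in AT3 and E0771 neutrophils was 332 ± 245 and 113 ± 23.4 CPM. Mif (3.21 and 1.89) and Ndrg1 (3.09 and 1.79), both HIF targets, rose as well. Hilpda, a lipid droplet protein, rose by 2.28 ± 0.52 and 1.00 ± 0.39 (adjusted p = 0.00143 and 0.0253) and lost its call without 2208L replicate 1, 2208L replicate 3, T11 replicate 2 or T11 replicate 3 (adjusted p on the second scale 0.0527 to 0.113). Vegfa, the endothelial growth factor, passed on the all-gene scale alone (1.76 ± 0.35 and 0.45 ± 0.27 (adjusted p = 0.00031 and 0.136)). Egln3 was low in macrophages, 50.4 ± 13.5 CPM in 2208L and 10.6 ± 2.25 CPM in T11, whereas Tpi1 averaged 605 ± 60.9 CPM in 2208L and 456 ± 46.1 CPM in T11 macrophages.

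The promoters of this list are shown because HIF binds the core ACGTG in its target genes. RefSeq promoters of build GRCm38.p6 were matched for 14 of the 16 genes that rose, and 250 bases before the first listed start were searched on both strands for ACGTG, which overlaps the E-box CACGTG. It occurred in 6 of 14 (42.9%) and in 7 of the 12 matched list members that did not rise (58.3%), against 4477 of 27025 promoters of the same length (16.6%). The list holds known HIF targets, so these shares describe the list and say nothing about the rise. With GCGTG added as a second core, 8 of 14 (57.1%) held a match, against 38.6% of promoters. The capitals below mark ACGTG or its reverse complement CACGT in 3 of these genes, each read along the strand of the gene. Ldha lies at chr7:46845554-46845803 on the plus strand, Egln3 at chr12:54203875-54204124 on the minus strand and Pgk1, phosphoglycerate kinase, at chrX:106186850-106187099 on the plus strand.
Ldha: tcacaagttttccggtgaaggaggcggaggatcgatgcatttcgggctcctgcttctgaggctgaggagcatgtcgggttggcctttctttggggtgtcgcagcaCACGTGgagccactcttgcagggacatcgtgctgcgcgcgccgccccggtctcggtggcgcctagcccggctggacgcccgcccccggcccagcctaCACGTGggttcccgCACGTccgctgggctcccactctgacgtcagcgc
Egln3: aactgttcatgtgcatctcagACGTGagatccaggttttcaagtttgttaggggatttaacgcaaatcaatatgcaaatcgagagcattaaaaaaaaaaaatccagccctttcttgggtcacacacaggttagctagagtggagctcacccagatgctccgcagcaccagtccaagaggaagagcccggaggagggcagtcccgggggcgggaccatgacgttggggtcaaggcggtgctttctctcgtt
Pgk1: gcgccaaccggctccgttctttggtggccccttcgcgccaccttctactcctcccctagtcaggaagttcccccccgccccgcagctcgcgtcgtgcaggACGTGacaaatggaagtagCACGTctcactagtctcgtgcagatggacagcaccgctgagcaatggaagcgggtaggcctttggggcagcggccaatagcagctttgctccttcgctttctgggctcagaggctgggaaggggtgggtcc
Ldha held 3 stretches, Egln3 1 and Pgk1 2, and no match was found in this window for Tpi1, Aldoa or Mif, the 3 with the largest difference on the second scale. A match is a string of letters and does not show binding.

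The NADPH oxidase, which makes superoxide in the phagosome, rose in the subunit genes Ncf1, Ncf4, Rac2, Cybb and Cyba. Of all genes above background 23.1% rose. Ncf1, the p47 organiser subunit, had 356, 527 and 369 CPM in 2208L neutrophils, against 119.5, 71.3 and 103 CPM in T11 neutrophils. It rose by 2.67 ± 0.36 and 1.35 ± 0.23 (adjusted p = 2.28e-06 and 0.000121). Ncf4 (2.18 and 0.87) and Rac2 (2.19 and 0.91) followed. Cybb, the catalytic subunit, rose by 1.96 ± 0.37 and 0.60 ± 0.24 (adjusted p = 0.000181 and 0.0323) and lost its call without any of the 2208L libraries or T11 replicate 1 (adjusted p on the second scale 0.062 to 0.206). Cyba, its membrane partner, rose by 2.04 ± 0.34 and 0.74 ± 0.30 (adjusted p = 3.88e-05 and 0.0287) and lost its call without 2208L replicate 2 or 3 or T11 replicate 2 or 3 (0.05 to 0.117). Without 2208L replicate 2 or 3 the number of oxidase genes that rose was 3. Cybb was higher in 2208L macrophages, 1313 ± 41.4 CPM, than in either group of neutrophils.

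Few immediate-early genes rose. Of 21 AP-1 and immediate-early genes 20 were tested, 15 lay above background, and 3 of these (20%) rose on both scales, Egr3, Egr2 and Fosb, close to the 23.1% of all genes above background. Without T11 replicate 2 the number was 2. Egr3, a zinc-finger factor of stimulated cells, had 253, 277 and 244 CPM in 2208L neutrophils, against 72.7, 28.5 and 68.1 CPM in T11 neutrophils. It rose by 2.75 ± 0.37 and 1.47 ± 0.31 (adjusted p = 2.19e-06 and 0.000618). Egr2 rose by 2.29 ± 0.33 and 0.99 ± 0.29 (adjusted p = 4.97e-06 and 0.00523), and Fosb by 2.09 ± 0.37 and 0.82 ± 0.26 (adjusted p = 7.63e-05 and 0.00815) with an adjusted p of 0.0644 on the second scale without T11 replicate 2. Dusp1, a phosphatase that ends MAP kinase signals, had 866, 942 and 939 CPM in 2208L neutrophils, against 2346, 948 and 1896 CPM in T11 neutrophils. Every T11 library stood above the 2208L libraries, the lowest by little, and the differences were -0.35 ± 0.56 and -1.62 ± 0.23 (adjusted p = 0.624 and 4.03e-05), past the threshold on the second scale alone. Jun (1.86 ± 0.54 and 0.62 ± 0.34 (adjusted p = 0.00832 and 0.107)) and Egr1 (1.62 ± 0.56 and 0.36 ± 0.28 (adjusted p = 0.0262 and 0.258)) passed on the all-gene scale alone. Jun lost this call without T11 replicate 2 (adjusted p = 0.0544), and Egr1 without 2208L replicate 1 or 2 or T11 replicate 2 or 3 (0.0632 to 0.11). Of 13 NF-kB genes above background 2 (15.4%) rose on both scales, Ier3, a survival gene with 700.2, 709.6 and 666 CPM in 2208L neutrophils, against 218, 189.6 and 208 CPM in T11 neutrophils (2.33 ± 0.47 and 1.00 ± 0.26 (adjusted p = 0.000352 and 0.00228)), and Icam1. The NF-kB inhibitor Nfkbia passed on the all-gene scale alone (1.79 ± 0.46 and 0.52 ± 0.26 (adjusted p = 0.00336 and 0.0795)).

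Few interferon genes rose. Of 40 interferon genes 27 lay above background and 23 (85.2%) were higher on the all-gene scale, against 79.3% of all genes above background. On both scales 3 (11.1%) rose, Ifit1, Oasl2 and Ifitm3, against 23.1%, and the median was 1.39 and 0.09. Ifit1, which binds foreign RNA, had 236, 338 and 249 CPM in 2208L neutrophils, against 75.9, 77.5 and 134 CPM in T11 neutrophils. It rose by 2.12 ± 0.40 and 0.77 ± 0.27 (adjusted p = 0.000191 and 0.0167). Without 2208L replicate 2 or T11 replicate 2 the count was 1. On the second scale Ifit1 lost its call without 2208L replicate 2 or T11 replicate 1 (adjusted p = 0.0893 and 0.118), Oasl2 (2.09 and 0.76) without 2208L replicate 2 or T11 replicate 2 (0.155 and 0.092), and Ifitm3 (2.04 and 0.74) without T11 replicate 2 (0.0567). Rsad2, viperin, passed on the all-gene scale alone (1.85 ± 0.48 and 0.51 ± 0.26 (adjusted p = 0.00384 and 0.074)), Cxcl10 did not pass (0.95 ± 0.39 and -0.34 ± 0.29 (adjusted p = 0.0533 and 0.287)), and Stat2 was lower on the second scale alone (0.70 ± 0.32 and -0.62 ± 0.27 (adjusted p = 0.0823 and 0.0435)). 2 of 6 class I presentation genes above background (33.3%) rose, B2m (1.96 and 0.63) and Tapbp (1.93 and 0.66), and H2-K1 passed on the all-gene scale alone (1.41 ± 0.42 and 0.13 ± 0.25 (adjusted p = 0.0098 and 0.635)). Without 2208L replicate 1, 2208L replicate 2 or T11 replicate 2 none of the 6 did, and without T11 replicate 1 the count was 1. H2-K1 lost its call without T11 replicate 2 (adjusted p = 0.0721). Of 14 genes of pattern recognition above background 1 (7.14%) rose, with a median of 1.48 and 0.12, and none did without 2208L replicate 2 or 3 or T11 replicate 1 or 2. Of the other lists, 4 of 11 Fc receptor genes above background (36.4%), 3 of 8 lipid genes (37.5%), 2 of 10 survival genes (20%), 1 of 5 myeloid transcription factors (20%) and 1 of 4 proliferation genes (25%) rose, where 23.1% of all genes above background did. Lipid genes that rose numbered 2 with any 1 library left out. Without T11 replicate 1, Fc receptor genes numbered 6, survival genes 3 and myeloid factors 2. Proliferation genes numbered 0 without 2208L replicate 1, T11 replicate 1 or T11 replicate 2 and 2 without T11 replicate 3. Genes with near-identical copies, among them Gapdh, Ftl1, Ifit1 and H2-K1, may share reads with these copies.

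**Figure D4:**
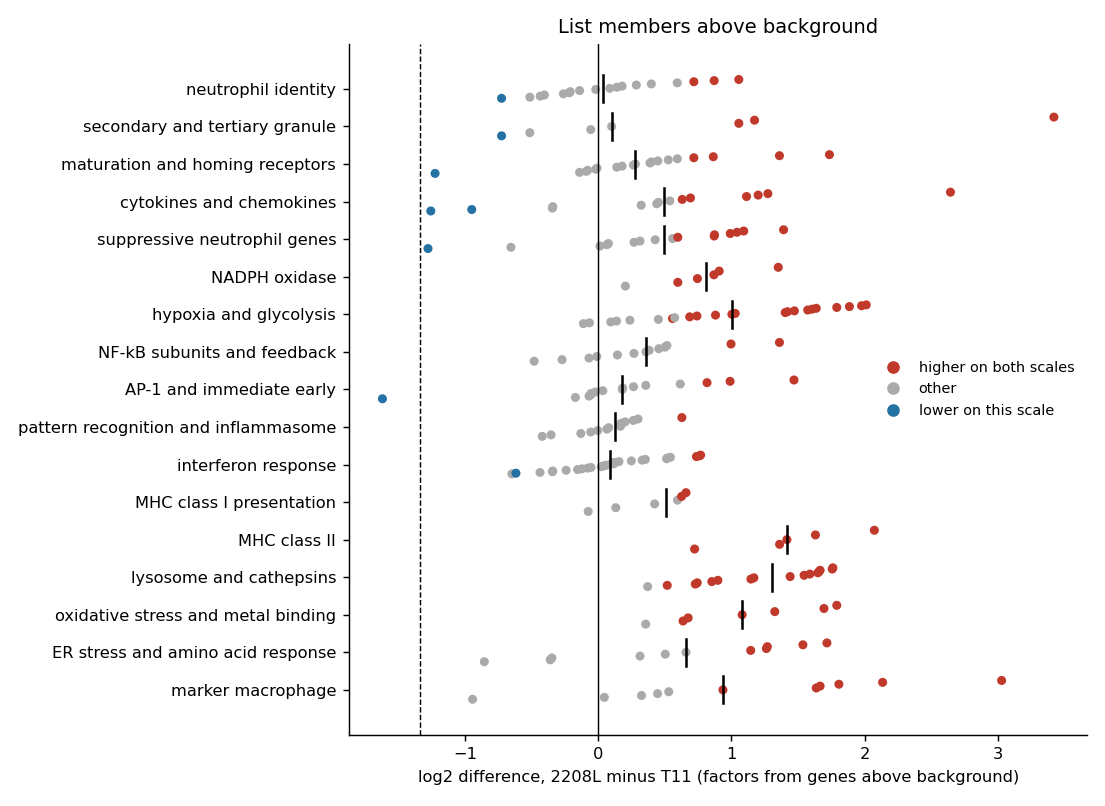
Log2 difference, 2208L minus T11, on the scale set by genes above background, 1 point per list member above background, red where higher on both scales, blue where lower on this scale and grey otherwise. The black bar is the list median, the dashed line the zero of the all-gene scale. The medians of the hypoxia, lysosomal and class II lists are 1.00, 1.30 and 1.42, and those of the identity and interferon lists 0.03 and 0.09.

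Most lysosomal and class II genes rose, and 2208L macrophages held the class II genes at high level. Of 17 genes of lysosome and cathepsins 16 lay above background and 15 (93.8%) rose on both scales, against 23.1% of all genes above background, with a median of 2.61 and 1.30, and 12 did so without 2208L replicate 2 or T11 replicate 2. Ctss, the cathepsin that processes invariant chain, had 1041, 1254 and 864 CPM in 2208L neutrophils, against 200.2, 124 and 235 CPM in T11 neutrophils. It rose by 3.08 ± 0.44 and 1.76 ± 0.23 (adjusted p = 4.97e-06 and 2.02e-05). Psap, prosaposin, had 3061, 3083 and 2962 CPM in 2208L neutrophils, against 686, 320 and 745 CPM in T11 neutrophils. It rose by 2.95 ± 0.56 and 1.67 ± 0.24 (adjusted p = 0.000172 and 4.24e-05). Each 2208L library stood at least 3 times above every T11 library for these 2 genes. Lgmn (3.03 and 1.76) and Ctsb (2.86 and 1.59) rose too. Of 7 class II genes 5 lay above background and rose, with a median of 2.72 and 1.42. Without any 1 library except 2208L replicate 3 the number was 4. Cd74, the invariant chain, had 2771, 2832 and 2435 CPM in 2208L neutrophils, against 291, 137 and 738 CPM in T11 neutrophils. It rose by 3.37 ± 0.61 and 2.07 ± 0.36 (adjusted p = 0.000103 and 0.000141). H2-Aa (2.94 and 1.63), H2-Ab1 (2.72 and 1.42) and H2-Eb1 (2.66 and 1.36), the chains that present peptide, followed. H2-DMa, which loads it, rose by 2.05 ± 0.32 and 0.72 ± 0.31 (adjusted p = 1.52e-05 and 0.0425) and lost its call without any 1 of the libraries except 2208L replicate 3 (adjusted p on the second scale 0.053 to 0.189).

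Markers of macrophages were higher as well. Of 14 macrophage markers 11 lay above background. Of these, 10 (90.9%) were higher on the all-gene scale, against 79.3% of all genes above background, and 6 (54.5%) rose on both, against 23.1%. Apoe, the lipoprotein of tissue macrophages, had 3110, 3135 and 1979 CPM in 2208L neutrophils, against 245, 167 and 188 CPM in T11 neutrophils. It rose by 4.36 ± 0.54 and 3.03 ± 0.27 (adjusted p = 4.48e-07 and 8.05e-08). C1qc, a complement subunit made by macrophages, stood at 738, 649 and 521 CPM in 2208L neutrophils and at 142, 55.0 and 169 CPM in T11 neutrophils. The 14 markers summed to 6042 to 8249 CPM in 2208L neutrophils and 1011 to 1770 CPM in T11 neutrophils, with none at 0, and to 19630 to 28270 CPM in 2208L macrophages and 7853 to 10060 CPM in T11 macrophages. The 7 class II genes summed to 4196 to 4941 CPM in 2208L neutrophils and 420 to 1563 CPM in T11 neutrophils, against 15160 to 17630 CPM in 2208L and 645 to 5718 CPM in T11 macrophages. The 7 monocyte markers summed to 3911 to 4783 CPM in 2208L neutrophils and 583 to 1413 CPM in T11 neutrophils, with none at 0, and to 8413 to 12790 CPM in 2208L and 1154 to 1538 CPM in T11 macrophages. Most of this sum was Fn1, fibronectin, with 3919, 4507 and 3647 CPM in 2208L neutrophils, against 1141, 304 and 431 CPM in T11 neutrophils, and cultured 2208L cells held 5024 ± 342 CPM. Fn1 and Ms4a4c were the 2 above background, and of these Fn1 rose (3.24 and 2.01). Over all 7 monocyte markers the median was 0.51 and -0.87, against -0.21 and -1.55 over all genes tested. On the all-gene scale 3 of the 7 were higher and 0 lower, and on the second scale 1 was higher and 3 lower. The part of macrophage or monocyte RNA in the rises of lysosomal, class II, Itgax, Lyz2 and oxidase genes was not tested. Hmox1, heme oxygenase, rose by 2.36 ± 0.45 and 1.08 ± 0.25 (adjusted p = 0.000182 and 0.000971) in a list of oxidative-stress genes of which 6 of 7 above background (85.7%) rose, 3 without 2208L replicate 2. 5 of 11 ER-stress genes above background (45.5%) rose, led by Xbp1 (3.06 and 1.72) and Hspa5 (2.82 and 1.54). For the oxidative-stress and ER-stress lists alike, the share over all genes above background was 23.1%.

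Genes enriched in neutrophils were also taken apart from the rest. They were chosen after values had been seen, as genes above background whose mean in AT3 and E0771 neutrophils was at least 4 times that in macrophages of the same tumours and in cultured T11 and 2208L cells. Receptor genes took 6337 to 12590 CPM in these neutrophils, 868.2 to 3232 CPM in these macrophages and 924.7 to 1357 CPM in culture. A gene can therefore meet the rule through background, which was also higher in T11 than in 2208L neutrophils. Of 124 such genes 57 (46%) were higher on the all-gene scale and 13 lower. On the second scale 19 were higher and 46 lower. On both scales 19 (15.3%) rose and 13 (10.5%) were lower, against 23.1% and 1.69% of all genes above background. In a fit with background subtracted from the counts, 36 of 125 such genes were higher and 12 lower. The part of background in the choice of these genes was not tested. At 20 times the receptor level 64 of these genes were left, of which 15 (23.4%) rose and 1 (1.56%) was lower, against 46.2% and 0.472% of all genes at that level. Among the 13 were Frmd7, Nms, Ssxb10, Mup5, Pnpla3 and Serpinb9d. Among the 19 the largest difference was that of Igfbp5 (4.57 and 3.25), which is described below. Others were Mmp9, Clec4e, Il1r2, Siglec5, Egln3, Nos2, Ier3, Egr3, Hilpda, Il1b and Ccl3. G0s2, a lipase inhibitor, was another, with 437, 402 and 248 CPM in 2208L neutrophils, against 192, 44.9 and 136 CPM in T11 neutrophils. It rose by 2.10 ± 0.47 and 0.84 ± 0.32 (adjusted p = 0.00107 and 0.0238) and lost its call without 2208L replicate 1, 2208L replicate 2 or T11 replicate 2 (adjusted p on the second scale 0.0666 to 0.175).

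Among the largest rises were genes that sorted macrophages of 2208L tumours and cultured 2208L cells also held. Tes, a focal-adhesion protein, had 1555, 1468 and 1558 CPM in 2208L neutrophils, against 61.4, 42.8 and 35.1 CPM in T11 neutrophils. It rose by 5.59 ± 0.53 and 4.29 ± 0.28 (adjusted p = 2.89e-09 and 2.81e-10), with 882 ± 280.2 and 44.2 ± 12.5 CPM in 2208L and T11 macrophages and 2243 ± 69.2 and 510.5 ± 21.9 CPM in cultured 2208L and T11 cells. Met, the receptor for hepatocyte growth factor, had 1727, 1902 and 2062 CPM in 2208L neutrophils, against 85.6, 141 and 80.4 CPM in T11 neutrophils. It rose by 4.81 ± 0.46 and 3.42 ± 0.29 (adjusted p = 3e-09 and 2.59e-08), with 5022 ± 48.5 and 489.9 ± 25 CPM in cultured 2208L and T11 cells. Capza2, an actin-capping subunit, rose by 4.30 ± 0.43 and 2.98 ± 0.23 (adjusted p = 6.95e-09 and 4.6e-09), with 3443 ± 27.6 and 537 ± 29.7 CPM in culture. These 3 genes lie close together on chromosome 6 (Tes at 17065149 to 17105828, Met at 17463800 to 17573980 and Capza2 at 17636234 to 17666972). Cav2, which lies between Tes and Met and was chosen after its values were seen, differed by 3.85 and 2.56. The keratins Krt8 (3.14 ± 0.35 and 1.81 ± 0.50 (adjusted p = 7.11e-08 and 0.00364)) and Krt18 (3.56 ± 0.32 and 2.26 ± 0.36 (adjusted p = 7.68e-10 and 8.63e-05)) rose, and 12 epithelial markers summed to 996 to 1142 CPM in 2208L neutrophils and 434 to 526 CPM in T11 neutrophils, against 5122 to 5423 CPM in cultured 2208L and 369 to 383 CPM in cultured T11 cells, with none at 0 in the sorted neutrophils. The part of these epithelial markers in the rises was not tested. 12 markers of mesenchymal tumour cells or fibroblasts summed to 645 to 798 CPM in 2208L neutrophils and 942 to 1009 CPM in T11 neutrophils. In culture they summed to 74.7 to 85.1 CPM in 2208L and 2150 to 2263 CPM in T11 cells. Of these markers 1 lay above background and rose, and 4 under that level were lower on both scales. Lists of dendritic, T and NK, B, platelet and erythroid, and endothelial markers had no member above background. Summed endothelial markers were 138 to 185 CPM in 2208L and 287 to 471 CPM in T11 neutrophils, lower in 2208L as the receptor genes were, and T and NK markers 99.6 to 143 CPM in 2208L and 210 to 253 CPM in T11 neutrophils.

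Other large rises were in Trf, H19, Igfbp5 and Spp1. Trf, transferrin, had 1647, 1871 and 2049 CPM in 2208L neutrophils, against 85.6, 67.3 and 88.7 CPM in T11 neutrophils. It rose by 5.10 ± 0.48 and 3.78 ± 0.23 (adjusted p = 2.95e-09 and 9.13e-11), with 1980 ± 630 CPM in 2208L macrophages, 35.4 ± 15.6 CPM in T11 macrophages and 5.06 ± 1.2 CPM in cultured 2208L cells. H19, an imprinted noncoding RNA, had 461, 428 and 426 CPM in 2208L neutrophils, against 22.6, 14.3 and 16.5 CPM in T11 neutrophils. It rose by 5.16 ± 0.39 and 3.87 ± 0.35 (adjusted p = 3.07e-11 and 8.22e-08) and averaged 229 ± 57.6 and 1.63 ± 2.09 CPM in 2208L and T11 macrophages. Igfbp5, which binds insulin-like growth factors, had 662, 618 and 826 CPM in 2208L neutrophils, against 43.6, 42.8 and 45.4 CPM in T11 neutrophils. It rose by 4.57 ± 0.39 and 3.25 ± 0.37 (adjusted p = 3.09e-10 and 4.35e-06), with 28.4 ± 21.6 and 45.5 ± 3.21 CPM in AT3 and E0771 neutrophils. For Trf, H19 and Igfbp5 both sorted cell types of 2208L tumours were high, and cultured 2208L cells averaged 5.06 CPM or less. Spp1, osteopontin, had 2794, 3085 and 2166 CPM in 2208L neutrophils, against 252, 91.7 and 148 CPM in T11 neutrophils. It rose by 4.59 ± 0.54 and 3.31 ± 0.26 (adjusted p = 1.77e-07 and 4.6e-09) and was high in macrophages and in culture, at 6904 ± 1107 CPM in 2208L macrophages and 1995 ± 89.1 CPM in cultured 2208L cells.

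Few genes above background were lower in 2208L neutrophils on both scales, 31 of 1839, and most of them lay near the threshold. The rule of both scales favours rises, as on the second scale 236 (12.8%) were lower and 426 (23.2%) higher. At 20 times the receptor level 636 genes were tested, of which 295 were higher and 34 lower on the second scale. On both scales 294 were higher and 3 lower. S100a4, a calcium-binding protein of motile cells (chromosome 3, 90603771 to 90606045), was 1 of the 3, with 5.56, 4.22 and 2.66 CPM in 2208L neutrophils, against 84, 38.7 and 74.2 CPM in T11 neutrophils. It fell, with differences of -3.34 ± 0.46 and -4.62 ± 0.37 (adjusted p = 2.58e-06 and 9.26e-09). S100a4 averaged 333 ± 36 and 71.5 ± 12.8 CPM in AT3 and E0771 neutrophils. In macrophages it stood at 9.04 ± 6.72 CPM in 2208L and 1745 ± 400.3 CPM in T11 tumours, and in culture at 32.1 ± 4.55 CPM in 2208L and 735 ± 50.8 CPM in T11 cells. The other two, A530032D15Rik and A430107P09Rik, are named here after their values were seen. Ctsk, the collagen-degrading cathepsin K (chromosome 3, 95499256 to 95509362), had 17.8, 12.7 and 9.32 CPM in 2208L neutrophils, against 107, 63.2 and 70.1 CPM in T11 neutrophils. It fell, with -2.00 ± 0.43 and -3.30 ± 0.55 (adjusted p = 0.000644 and 0.000115), and stood at 10.4 ± 8.67 CPM in 2208L macrophages and 5493 ± 1401 CPM in T11 macrophages. Frmd7, a cytoskeletal adaptor, fell with -1.63 ± 0.41 and -2.97 ± 0.58 (adjusted p = 0.00291 and 0.000308) at 10.4 times background. Nms, Ssxb10, Tmem225, Tmco5, Mup5, Pnpla3, Serpinb9d, Rdh18-ps and Lcn9 were also lower on both scales, lay at 10.4 to 17.1 times background, and each lost its call without at least 1 library, for Lcn9 with an adjusted p on the all-gene scale of up to 0.173. Their differences on the all-gene scale, -1.89 to -1.16, lay near the -1.13 of the receptor genes, which were likewise lower in 2208L. In a fit with background subtracted from the counts, 24 of the 31 lower genes were called lower too. Of the genes named in this paragraph Lcn9 lost its call there (adjusted p = 0.0533). The part of background in these lower levels was not tested further. Without 2208L replicate 2 or T11 replicate 2 the 31 lower genes became 10.

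Whether tumours differed alike in neutrophils and macrophages was tested as a difference of differences over the 24 sorted libraries. Differences were compared with their sign, so a gene that was less reduced in neutrophils counts as larger there. Of 1862 genes above background in the 6 neutrophil libraries, 1100 (59.1%) had a larger 2208L minus T11 difference in neutrophils than in macrophages on the all-gene scale and 68 (3.65%) a smaller one. On the second scale 465 (25%) were larger and 336 (18%) smaller, so the balance rests on the scale. Of 465 receptor genes in this test 0 were larger and 51 smaller on the all-gene scale, with a median of -1.61. On the second scale 172 were smaller, with a median of -3.06. Receptor genes took 12990 to 18860 CPM in T11 neutrophils and 984.1 to 1756 CPM in T11 macrophages. The part of background in the smaller differences was not tested. Mmp9 had the largest difference of the named genes. It was higher in 2208L than in T11 neutrophils, while in macrophages it averaged 15.3 ± 14.2 CPM in 2208L and 5975 ± 2550 CPM in T11 tumours, and the difference of differences was 11.38 ± 0.85 and 9.96 ± 0.71 (adjusted p = 8.61e-14 and 1.88e-12). Ctsk was lower in 2208L in both cell types, with 10.4 ± 8.67 CPM in 2208L and 5493 ± 1401 CPM in T11 macrophages, and its difference of differences was 7.25 ± 0.72 and 5.86 ± 0.68 (adjusted p = 2.72e-10 and 1.71e-07). Acp5, tartrate-resistant acid phosphatase, averaged 429 ± 98.7 CPM in 2208L and 5789 ± 1259 CPM in T11 macrophages, with 6.06 ± 0.57 and 4.68 ± 0.42 (adjusted p = 7.45e-11 and 1.2e-09). In T11 macrophages these 3 genes, all known from osteoclasts, were at 5493 CPM or more on average. Lcn2 and Slpi, a protease inhibitor of epithelia and neutrophils, had a smaller difference in neutrophils than in macrophages. Lcn2 averaged 557 ± 115 CPM in 2208L and 2.43 ± 2.43 CPM in T11 macrophages, with -2.84 ± 0.73 and -4.21 ± 0.64 (adjusted p = 0.00302 and 1.27e-05). Slpi averaged 26.6 ± 4.69 CPM in 2208L and 1.1 ± 0.967 CPM in T11 macrophages, with -2.72 ± 0.89 and -4.03 ± 0.81 (adjusted p = 0.0186 and 0.000364), and on the all-gene scale it lost its call without T11 neutrophil replicate 1 or T11 macrophage replicate 2 (adjusted p = 0.0932 and 0.105). Il1b had 784 ± 53.2 CPM in 2208L and 27.3 ± 14.1 CPM in T11 macrophages, and its difference of differences was -2.65 ± 0.64 and -4.03 ± 0.45 (adjusted p = 0.00172 and 9.2e-08).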

How the data were processed

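The submitters' processing notes list bcl2fastq 2.17, STAR 2.4.2a and the mm10 build. The counting program, its annotation and the use of strand are not given in the sources used here, so reads of paralogs and of overlapping or antisense genes cannot be told apart. The authors deposited 1 table of raw counts per gene symbol, and 18 of its columns were not used. Groups came from the titles. Of the symbols, 22750 matched GENCODE M21 by name, 533 by gene ID and 414 by synonym, and 357 matched none. Libraries were made from total RNA, and Rn45s was left out of library sizes and tests.

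The 12 neutrophil libraries entered 1 quasi-likelihood fit (edgeR 4.0.16, R 4.3.3) after filterByExpr by group at a minimum count of 10 and a minimum total of 15. TMM set the factors, and Benjamini-Hochberg adjusted p-values over all 17202 genes. SE were taken from the F statistic. CPM were computed here from the deposited counts, outside Rn45s and with no factors. The fit was repeated with TMM factors from genes above background, and the difference of differences was fitted over the 24 sorted libraries. The script was tested on simulated data. Figures were drawn with matplotlib 3.10.9 in Python 3.11.15.

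The genes, lists and comparisons were chosen with earlier results of these data known. By rule, the text names genes from the 12 with the largest difference in each direction among genes above background past the threshold whose mean log2 CPM reaches 4 and whose groups do not overlap, and up to 6 passing and 2 other members of each list. Other genes were chosen after their values were seen. Some members of the receptor and oxidase lists are not reported here. Calls on both scales, neutrophil-enriched genes, the second scale for the difference of differences and list counts without single libraries were added after seeing the data. Replicate numbers did not pair the 2208L and T11 libraries: deviations of same-numbered libraries correlated at -0.06, -0.18 and -0.07. For neutrophils and macrophages of the same tumour and number the correlations were -0.077 to 0.083. The main fit of the difference of differences did not pair them. No pair of replicates agreed within counting error, with a chi-square per degree of freedom of 1.92 to 3.02.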

Additional observations from a re-analysis of the deposited data

Results flagged for a closer look

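10 genes were singled out because the 2208L minus T11 difference itself differed between neutrophils and macrophages in edgeR's test over 24 sorted libraries, the 5 largest in each direction. On the all-gene scale, neutrophils minus macrophages, it was larger in neutrophils, taken with its sign, for Mmp9 (11.38), Ctsk (7.25), Acp5 (6.06), Pstpip1 (5.06) and Atp6v1g1 (4.91). In macrophages these 5 genes were lower in 2208L than in T11 tumours. The difference was smaller in neutrophils for Lcn9 (-3.73), Muc1 (-3.14), Pnpla3 (-3.07), Lcn2 (-2.84) and Slpi (-2.72). Receptor genes had a median of -1.61 in the same test, and the part of background was not tested. All 10 passed on the scale of genes above background with the same sign. Pstpip1, an adaptor of the actin cytoskeleton, averaged 49.4 ± 9.77 CPM in 2208L and 539 ± 109.6 CPM in T11 macrophages. Atp6v1g1, a subunit of the proton pump, averaged 82.8 ± 29.6 CPM in 2208L and 490.1 ± 114 CPM in T11 macrophages. Muc1, an epithelial mucin, averaged 114 ± 22.2 CPM in 2208L and 14.6 ± 5.41 CPM in T11 neutrophils, and 42.8 ± 22.6 CPM in 2208L and 0.302 ± 0.522 CPM in T11 macrophages. Mmp9, Ctsk, Acp5, Pstpip1, Atp6v1g1 and Lcn2 stayed past the threshold without any 1 library. Lcn9 (adjusted p up to 0.0811), Muc1 (0.131), Slpi (0.105) and Pnpla3 (0.0526) lost their call without at least 1 library, among them T11 macrophage replicate 2 for the first 3 and 2208L macrophage replicate 3 for Pnpla3. Groups of 3 libraries were too small to test a single library for standing apart.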

How the results depend on the processing

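The receptor level of T11 libraries, their depth of 484820 to 619415 counts outside Rn45s and the scale limit these results. The scale moved the numbers of genes higher and lower further than DESeq2 did. Depth was not varied, and the cause of the moves below was not tested. Factors from genes above background left 483 genes higher and 11597 lower (above background 426 and 236) and, for the difference of differences, 465 and 336. They turned the sign of Cd177 (-0.73), Ngp (-0.056), Osm (-0.95) and Stat2 (-0.62), which passed on 1 scale, and of Csf3r, Mmp8, Ccl6, Arg2, Zfp36 and Cxcl10, which passed on neither. Genes lower numbered 1554 with DESeq2 and 1399 with background subtracted, and 50 above background in a fit of only the 6 libraries. A threshold of 5 times background gave 2801 and 602 genes, 20 times gave 560 and 3, and 3 lower on both scales. Neutrophil-enriched genes alone gave 19 and 13. Genes with a smaller difference in neutrophils numbered 115 with RLE factors and 118 with DESeq2. As a share of all counts the receptor ratio was -2.14. Leaving out 1 library at a time gave 2420 to 3125 genes higher and 979 to 1863 lower, above background 1180 to 1470 and 10 to 29, on both scales 307 to 409 and 10 to 29, for the difference of differences 979 to 1199 and 47 to 72, and -1.67 to -1.37 for the receptor ratio. The lowest counts of lower genes came without 2208L replicate 2 (979) and T11 replicate 2 (1279). Of 81 named genes called on both scales 53 kept the call without any 1 library. With a replicate block on the all-gene scale 3222 genes were higher and 2434 lower, above background 1407 and 31, and for the difference of differences 1112 and 64. Cxcr2, Il1b and Egr1 lost their call there (adjusted p = 0.0535, 0.0727 and 0.0534), and no other named call on that scale changed. The second scale was not run with a block. Of genes that had not passed with all-gene factors, S100a8, S100a9, Ptgs2 and Zfp36 passed with DESeq2, with Rn45s kept or in the fit of 6 libraries, Csf3r and Ccl6 with DESeq2 or in the fit of 6, Cxcl10 with RLE factors, no filter, Rn45s kept or in the fit of 6, Zfp36 also with RLE factors or no filter, and Mmp8, Cd177, Arg2 and Stat2 in the fit of 6. Calls were lost by Serpinb9d, Rdh18-ps and Mpo with DESeq2 (adjusted p = 0.0513, 0.0758 and 0.0737), by Rdh18-ps and Mpo with no filter (0.0528 and 0.0532) and by Cxcr2, Ngp, Mpo, Egr1 and Lcn9 with background subtracted (0.0724, 0.12, 0.0821, 0.0608 and 0.0533).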
